A study of Homo sapiens with 6 samples.

Results

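The genes described here are the adaptors and kinases that set the activity of the non-canonical NF-kB pathway: the adaptors TRAF1, TRAF2, TRAF3 and TRAF5, the ubiquitin ligases BIRC2 and BIRC3, the kinase MAP3K14, the transcription factor genes NFKB2 and RELB, and the receptor gene TNFRSF13C. These 10 genes were chosen by name with their measured difference between the lines already known, so their values are given as a description without a test. All 10 were among the 25838 genes of the table, and 9 of them were among the 14869 genes with enough counts to be tested. RNA was sequenced from Sup-B15, a cell line from acute lymphoblastic leukaemia of B-cell precursors that responds to the glucocorticoid prednisolone, and from Sup-PR, a sub-clone of it that is resistant to the drug. Each line gave 3 libraries, grown in IMDM medium, and the labels name no drug added before harvest. The comparison rests on 1 parental line and 1 resistant sub-clone, so a difference tied to resistance and any other difference between them cannot be told apart. No source used here says that the cultures of a line were grown apart, so standard errors and p-values reflect how much these libraries vary, and that variation may be technical. The labels and the paper also give different serum contents for the medium.

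In resting cells TRAF3 bridges the kinase NIK, the product of MAP3K14, to a complex of TRAF2 with cIAP1 or cIAP2, the products of BIRC2 and BIRC3, which mark NIK for degradation. When a receptor such as the BAFF receptor (TNFRSF13C), CD40 or the lymphotoxin-beta receptor is engaged, it draws in this complex, TRAF3 is degraded and NIK accumulates. NIK then activates the kinase IKK-alpha (CHUK), the NFKB2 product p100 is cut to p52, and p52 enters the nucleus with RELB. In B cells the pathway is known for survival signals downstream of BAFF. Because TRAF3 and NIK are controlled mainly as proteins, transcript levels show the supply of the components and not the activity of the pathway.

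The promoters of the members whose levels or motifs the text returns to are shown first. Each is the RefSeq window from 250 bases before to 50 bases after a transcription start on GRCh38.p14, written on the strand of the gene. Capitals mark matches on either strand to a strict form of the NF-kB site, GGG and TTTCC with any 2 bases between. The windows are TRAF3 at chr14:102777199-102777498, NFKB2 (start A) at chr10:102394328-102394627, NFKB2 (start B) at chr10:102395455-102395754, BIRC3 at chr11:102317234-102317533 and TRAF5 at chr1:211326583-211326882, all on the plus strand.
TRAF3: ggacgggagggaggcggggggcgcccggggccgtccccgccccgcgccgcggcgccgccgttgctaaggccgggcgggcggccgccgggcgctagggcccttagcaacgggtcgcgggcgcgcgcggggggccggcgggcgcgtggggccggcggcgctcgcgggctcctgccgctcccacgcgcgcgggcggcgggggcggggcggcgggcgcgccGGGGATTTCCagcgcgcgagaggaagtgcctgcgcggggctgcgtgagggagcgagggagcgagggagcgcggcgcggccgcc
NFKB2 start A: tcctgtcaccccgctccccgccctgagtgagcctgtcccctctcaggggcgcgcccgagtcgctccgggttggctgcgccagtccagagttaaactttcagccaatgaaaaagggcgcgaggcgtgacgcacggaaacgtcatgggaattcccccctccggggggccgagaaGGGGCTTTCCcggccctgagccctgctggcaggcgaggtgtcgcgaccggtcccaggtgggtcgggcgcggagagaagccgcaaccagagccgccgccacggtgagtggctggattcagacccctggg
NFKB2 start B: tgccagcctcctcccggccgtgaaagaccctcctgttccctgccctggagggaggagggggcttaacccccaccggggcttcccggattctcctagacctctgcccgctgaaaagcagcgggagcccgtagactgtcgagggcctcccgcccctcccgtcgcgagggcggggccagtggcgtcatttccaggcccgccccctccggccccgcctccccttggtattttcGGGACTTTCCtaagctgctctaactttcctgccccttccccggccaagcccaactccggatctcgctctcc
BIRC3: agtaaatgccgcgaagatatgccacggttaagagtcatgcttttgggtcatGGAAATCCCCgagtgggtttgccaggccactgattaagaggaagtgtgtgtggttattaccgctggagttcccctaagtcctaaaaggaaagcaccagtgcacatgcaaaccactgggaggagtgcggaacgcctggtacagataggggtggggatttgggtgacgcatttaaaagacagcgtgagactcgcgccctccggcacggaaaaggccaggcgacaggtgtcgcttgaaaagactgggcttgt
TRAF5: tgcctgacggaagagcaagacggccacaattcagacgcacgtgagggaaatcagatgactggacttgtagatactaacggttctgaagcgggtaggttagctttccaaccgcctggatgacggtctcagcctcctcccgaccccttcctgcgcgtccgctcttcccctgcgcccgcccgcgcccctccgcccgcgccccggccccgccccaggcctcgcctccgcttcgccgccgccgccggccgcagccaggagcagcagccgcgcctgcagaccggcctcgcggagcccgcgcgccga

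RefSeq gave 15 such windows for 8 of the members. The strict motif was chosen after the sequences had been seen. It lay in 4 of the 15 windows, those of TRAF3, BIRC3 and NFKB2 (starts A and B), and in 1.91% of 35116 promoter windows of all genes. In TRAF3 the match GGGGATTTCC begins 33 bases before the start. In NFKB2 the matches GGGGCTTTCC and GGGACTTTCC begin 78 and 21 bases before starts A and B. A further NFKB2 window, chr10:102393860-102394159 at the start of the gene, had 0 strict matches and is not printed. The BIRC3 match, read on the reverse strand and therefore printed as GGAAATCCCC, begins 199 bases before the start. A looser form, GGG and CC with any 5 bases between, which takes in every strict match, was in 14 of the 15 windows and in 58.7% of all, so it sets few promoters apart. A single arm of the glucocorticoid receptor site, AGAACA, was in windows of TRAF1 alone among these genes and in 14.8% of all promoters, and the full site, AGAACA and TGTTCT with any 3 bases between, was in 0 of the 15 windows and in 1 of all 35116. The TRAF3 window is very rich in G and C (86.0%, with 61 CG dinucleotides), and the TRAF5 window printed here less so (70.3%, with 38), while the other TRAF5 windows were at 52.3% and 48.0%, with 8 and 3 CG dinucleotides. Such matches describe letters and do not show binding.

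The libraries held 16966569 to 26603422 counts, and between 2.00% and 2.69% of these lay on the mitochondrial chromosome. All 9 precursor B-cell markers reported here, PAX5, CD79A and DNTT among them, had a mean of at least 1 CPM (counts scaled to the TMM-normalized library total), and their summed level was 6980 to 7930 in Sup-B15 and 5740 to 6300 in Sup-PR. Of 7 T-cell markers, 2 were listed, at a summed 0 to 0.21 CPM in Sup-B15 and 0 in Sup-PR. The summed level of 5 NK-cell markers was 52.6 to 60.6 in Sup-B15 and 22.6 to 23.7 in Sup-PR, nearly all of it NKG7, while NCAM1 and KLRF1 were near 0. Summed myeloid markers reached 7.33 to 11.2 in Sup-B15 and 5.00 to 7.69 in Sup-PR. The part of these marker differences in the results below was not tested. Over all genes tested, 1120 (7.53%) were called higher in Sup-PR and 2293 (15.4%) lower, at an adjusted p under 0.05 in edgeR's quasi-likelihood test and a fold change over 1.5.

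The 10 genes did not move together. TRAF3 stood at about 3 times its parental level in Sup-PR, TRAF5 and TNFRSF13C were lower, TRAF2 and RELB were slightly higher, and TRAF1, BIRC2, MAP3K14 and NFKB2 had overlapping values in both lines. BIRC3 was close to absent from both. By the thresholds above, 1 member was called higher, against 7.53% of all genes tested, and 2 were called lower, against 15.4%. Of these 2, TRAF5 passed the filter only through Sup-B15. By the adjusted p alone 3 members were higher, where 28.0% of all genes were, and 2 were lower, where 27.4% were. In CPM, the 3 libraries of a line lay wholly beyond those of the other for 5 of the 9 members tested and for 61.1% of all genes tested. Since the genes were picked with this comparison known, nothing is read from these counts. Folds below are of Sup-PR against Sup-B15. In RNA from a whole culture, a lower level in every cell and fewer expressing cells cannot be told apart.

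TNFRSF13C (ENSG00000159958, chr22:41922023-41926818, minus strand) encodes the BAFF receptor, the only receptor among the members. Its level was 12.1, 13.2 and 11.9 CPM in the Sup-B15 libraries and 8.94, 6.69 and 8.28 CPM in the Sup-PR libraries. Every Sup-PR library was below every Sup-B15 library, and Sup-PR replicate 2 was the lowest. The means were 12.4 ± 0.709 and 7.97 ± 1.16 CPM (SD, n = 3), a log2 fold change of -0.65 with a standard error of 0.12 (1.57-fold lower). Without Sup-PR replicate 2 the log2 fold change was -0.54, short of the 1.5-fold threshold.

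TRAF3 (ENSG00000131323, chr14:102777476-102911500, plus strand), the adaptor that ties NIK to its ligases, had the largest upward difference of the group. It was at 22.6, 24.0 and 23.4 CPM in Sup-B15 and at 74.8, 77.5 and 74.9 CPM in Sup-PR, from 394, 661 and 445 counts and from 1489, 1783 and 1672 counts. The libraries of each line lay close together and the lines were far apart. The means of 23.3 ± 0.707 and 75.7 ± 1.54 CPM (SD, n = 3) gave a log2 fold change of 1.70 with a standard error of 0.06 and an approximate 95% interval from 1.58 to 1.82, which is 3.24-fold. By size of fold TRAF3 was number 140 from the top of the 14869 genes tested.

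TRAF2 (ENSG00000127191, chr9:136881912-136926607, plus strand), the partner that recruits cIAP1 and cIAP2, was at 38.0, 41.7 and 42.1 CPM in Sup-B15 and 53.0, 52.1 and 48.7 CPM in Sup-PR. The lines did not overlap, yet the gap was small, with a log2 fold change of 0.33 (standard error 0.07, interval 0.20 to 0.46), or 1.26-fold. The gene for the microRNA MIR4479 lies inside TRAF2 and had 16 counts in all of Sup-B15 and 5 in Sup-PR. Both genes are on the plus strand, so reads in the shared bases cannot be told apart. MIR4479 did not pass the filter and was not tested.

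TRAF5 (ENSG00000082512, chr1:211326615-211374946, plus strand), a relative of TRAF2 and TRAF3 that binds CD40 and other receptors of the family, had the largest downward difference. It gave 43, 75 and 48 counts in Sup-B15 and 8, 9 and 9 counts in Sup-PR. This is 2.46, 2.72 and 2.53 CPM against 0.402, 0.391 and 0.403 CPM, and the lines were well apart. The log2 fold change was -2.68 with a standard error of 0.27 and an interval from -3.21 to -2.14, or 6.39-fold lower. All 3 Sup-PR libraries were under the 0.462 CPM that the filter asked for in 3 libraries, so TRAF5 was tested only through its level in Sup-B15. It was number 380 from the lowest fold.

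TRAF1 (ENSG00000056558, chr9:120902393-120929173, minus strand), an adaptor known as a target of NF-kB, was scarce in both lines. Its level was 1.49, 2.03 and 1.79 CPM in Sup-B15 and 1.51, 1.74 and 0.672 CPM in Sup-PR. The lines overlapped, and Sup-PR replicate 3, with 15 counts, was the lowest library. The log2 fold change of -0.45 had a standard error of 0.32 and an interval from -1.08 to 0.17, and it was -0.15 without that library.

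**Figure D1:**
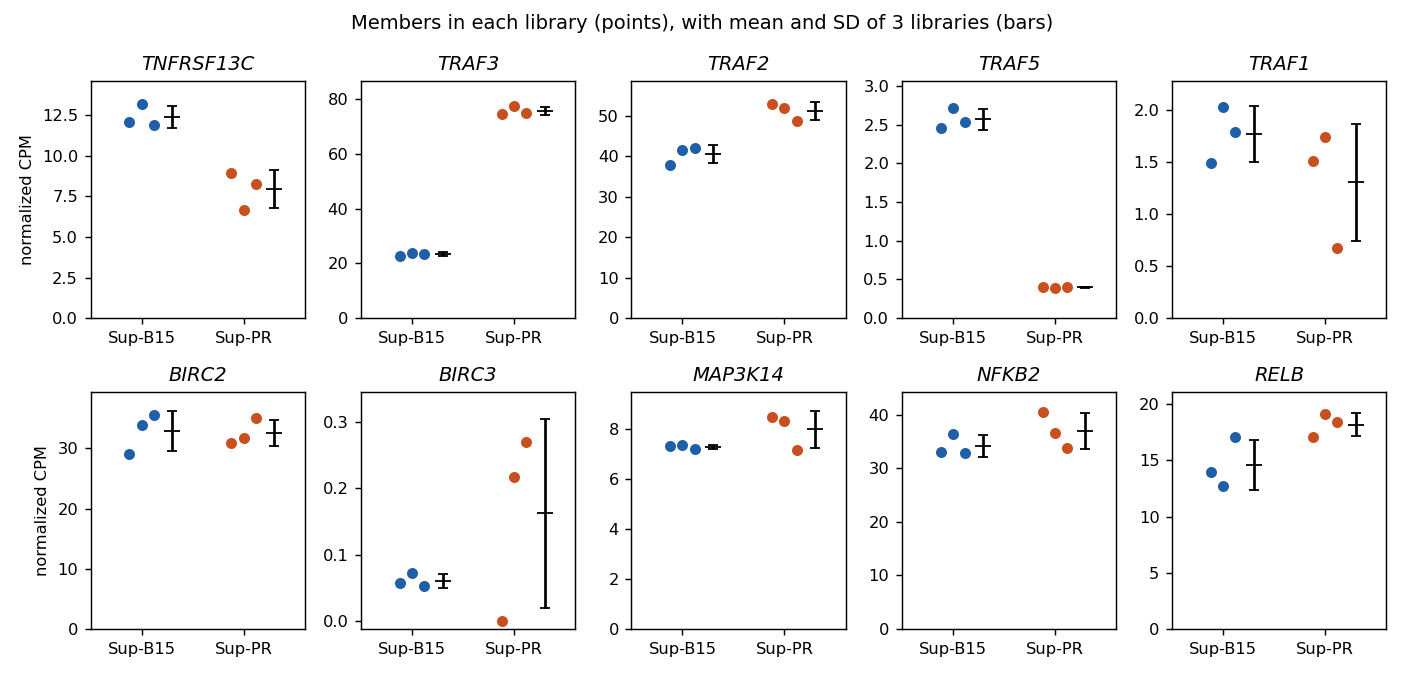
Level of each of the 10 genes in the 3 Sup-B15 (blue) and 3 Sup-PR (orange) libraries in normalized CPM, 1 panel a gene with its own linear axis. Points are libraries and the black bars give the mean and SD. TRAF3 is near 23.3 in Sup-B15 and 75.7 in Sup-PR, TRAF5 is near 2.57 and 0.399, and BIRC2, NFKB2 and MAP3K14 overlap.

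Of the ligases of the complex, cIAP1 transcripts were plentiful and cIAP2 transcripts near absent in both lines, at 7.17 and 0.00801 mean FPKM in Sup-B15. BIRC2 (ENSG00000110330, chr11:102347211-102378670, plus strand), which encodes cIAP1, was at 29.1, 33.9 and 35.5 CPM in Sup-B15 and 30.9, 31.8 and 35.0 CPM in Sup-PR. Each Sup-PR value lay inside the range of Sup-B15, and the log2 fold change was -0.01 with a standard error of 0.08 and an interval from -0.18 to 0.15. BIRC3 (ENSG00000023445, chr11:102317450-102339403, plus strand), which encodes cIAP2 and is itself a known target of NF-kB, had 1, 2 and 1 counts in Sup-B15 and 0, 5 and 6 in Sup-PR. It did not pass the filter. Its summed level in Sup-PR was 2.7 times that in Sup-B15, with a 95% counting interval from 0.8 to 11.6 that covers counting error only, so a difference was not detectable at this depth. BIRC3 lies only 7.81 kb before BIRC2 on the same strand, and the strict motif in its promoter is shown above.

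MAP3K14 (ENSG00000006062, chr17:45263119-45317145, minus strand), which encodes NIK, was at 7.33, 7.36 and 7.21 CPM in Sup-B15 and 8.49, 8.34 and 7.16 CPM in Sup-PR. The lines overlapped through Sup-PR replicate 3, and the log2 fold change was 0.13 with a standard error of 0.12 and an interval from -0.11 to 0.37. The antisense gene MAP3K14-AS1 shares 5512 bases with it, at 0.194 CPM in Sup-B15 and 0.205 CPM in Sup-PR. Whether counting used the strand is not given in the sources used here, so reads of this pair cannot be told apart.

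NFKB2 (ENSG00000077150, chr10:102394110-102402529, plus strand), the gene of p100 and p52, was at 33.1, 36.5 and 32.9 CPM in Sup-B15 and 40.6, 36.6 and 33.8 CPM in Sup-PR. The ranges overlapped, with a log2 fold change of 0.11, a standard error of 0.08 and an interval from -0.05 to 0.26. RELB (ENSG00000104856, chr19:45001430-45038198, plus strand), the partner of p52, was at 14.0, 12.7 and 17.1 CPM in Sup-B15 and 17.1, 19.1 and 18.4 CPM in Sup-PR. The highest Sup-B15 library and the lowest Sup-PR library nearly touched. In the authors' FPKM the lines overlapped, with 5.57 in Sup-B15 replicate 3 and 5.55 in Sup-PR replicate 1. Its log2 fold change was 0.33 with a standard error of 0.11 and an interval from 0.11 to 0.54, or 1.25-fold.

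Levels of different genes were compared per gene length, in the authors' FPKM. In Sup-B15 the order was TRAF2 at 11.0, NFKB2 at 7.55, BIRC2 at 7.17, RELB at 4.76, TNFRSF13C at 3.12, TRAF3 at 2.79, MAP3K14 at 1.25, TRAF5 at 0.282, TRAF1 at 0.272 and BIRC3 at 0.00801 mean FPKM. The neighbours NFKB2 and BIRC2, and TRAF5 and TRAF1, overlapped between libraries. In Sup-PR TRAF3 stood in place 2 and no longer in place 6, at 9.13 mean FPKM, behind TRAF2 at 13.9 and ahead of NFKB2 at 8.21 and BIRC2 at 7.16. TRAF3 did not separate from NFKB2 there, nor NFKB2 from BIRC2. TRAF5 at 0.044 FPKM came after TRAF1 at 0.201, and BIRC3 was last at 0.0216.

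**Figure D2:**
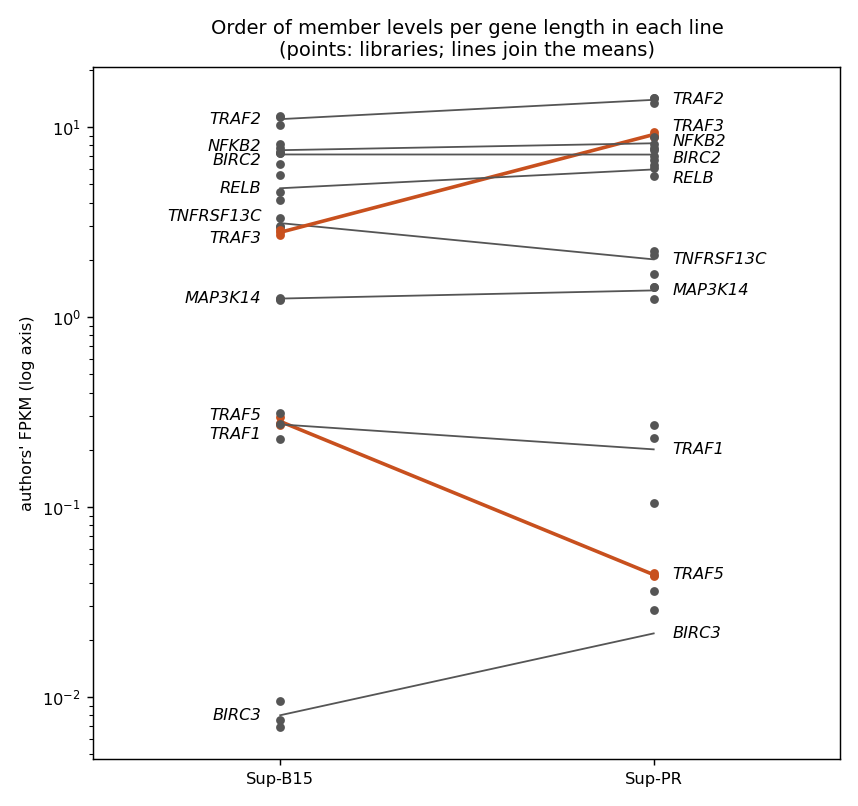
Levels per gene length of the 10 genes in each line, in the authors' FPKM on a log axis. Points are libraries and lines join the mean of 3 Sup-B15 libraries to that of 3 Sup-PR libraries, with TRAF3 and TRAF5 in orange. TRAF3 moves from 2.79 to 9.13 and crosses TNFRSF13C, RELB, BIRC2 and NFKB2, and BIRC3 in Sup-PR replicate 1 is at 0 and has no point.

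The balance of the components within a library shifted with TRAF3. The ratio of TRAF3 to TRAF2 FPKM was 0.263, 0.255 and 0.246 in Sup-B15 and 0.626, 0.660 and 0.681 in Sup-PR. The ratio of TRAF3 to MAP3K14 was 2.15, 2.28 and 2.27 in Sup-B15 and 6.17, 6.50 and 7.31 in Sup-PR. Both ratios were higher in every Sup-PR library, and both carry the difference in TRAF3 that the choice of genes used. The ratio of RELB to RELA, the Rel protein of the canonical pathway, was 0.267 ± 0.0451 in Sup-B15 and 0.302 ± 0.0123 in Sup-PR (SD, n = 3). That of NFKB2 to NFKB1, which encodes p105 and p50, was 0.330 ± 0.0243 and 0.315 ± 0.0242 (SD, n = 3). These ratios overlapped between the lines.

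A further 72 genes of the pathway were taken from 6 lists written by role, with earlier results of these data known. Of these, 60 were in the table and 49 were tested. Among the 49, 5 were past both thresholds as higher in Sup-PR and 8 as lower, against 7.53% and 15.4% of all genes tested. By the adjusted p alone 17 were higher and 14 lower, against 28.0% and 27.4% of all genes tested. Their median log2 fold change was 0.01, beside -0.013 for all genes tested. LTA, CD40, ICAM1 and TNFSF9 passed the filter only through the line in which they were higher, so their values are given below without a test. The counts by adjusted p alone and the medians, here and below, still include them. Among the 42 genes at the filter minimum in every library of both lines, 4 rose and 5 fell, against 7.52% and 11.9% of the 13059 such genes in the table, a count added after the values were seen.

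The ligands split in direction. Of 12 on the list, 6 were tested. Past both thresholds 3 were higher (7.53% of all genes tested) and 2 lower (15.4% of all genes), or 2 and 1 without LTA and TNFSF9, and the median log2 fold change was 0.51. LTB and LTA encode the subunits of the lymphotoxin that engages the lymphotoxin-beta receptor. LTB was at 2.86, 2.21 and 3.79 CPM in Sup-B15 and 9.24, 9.30 and 9.22 CPM in Sup-PR, and it rose with a log2 fold change of 1.67 (standard error 0.17, edgeR adjusted p = 2.6e-06). LTA had 43, 87 and 46 counts in Sup-B15 and 2, 2 and 1 in Sup-PR, which gave a log2 fold change of -5.04 with a standard error of 0.40. The lines were apart for both, in opposite directions. CD70, the ligand of CD27, rose from 0.978 ± 0.249 to 21.9 ± 0.889 CPM (SD, n = 3) with a log2 fold change of 4.49 (edgeR adjusted p = 3.5e-11). TNFSF9, the ligand of 4-1BB, gave 11, 9 and 12 counts in Sup-B15 and 24, 33 and 32 in Sup-PR, which gave a log2 fold change of 1.41. TNFSF13, which encodes APRIL, had a log2 fold change of -1.17 (edgeR adjusted p = 0.00057). TNFSF13B, which encodes BAFF, gave 18 counts in all of Sup-B15 and 10 in Sup-PR and was not tested.

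Of the 13 other receptors that bind TRAF2 or TRAF3, 7 were tested. Past both thresholds 1 was higher (7.53% of all genes tested) and 3 lower (15.4% of all genes), or 1 and 2 without CD40, and the median log2 fold change was -0.55. CD40, a receptor that acts through TRAF3 in B cells, was at 1.83, 2.14 and 1.79 CPM in Sup-B15 and 0.703, 0.391 and 0.448 CPM in Sup-PR. The lines did not overlap, and the log2 fold change was -1.92 with a standard error of 0.31. LTBR, the lymphotoxin-beta receptor, was at 4.41, 3.92 and 4.16 CPM in Sup-B15 and 5.02, 6.61 and 8.06 CPM in Sup-PR. It rose by 0.67 on the log2 scale (standard error 0.18, edgeR adjusted p = 0.0057), but by 0.48 without Sup-PR replicate 3, which is under the fold threshold. TNFRSF1B, which encodes TNF receptor 2, went from 145 ± 15.7 to 69.3 ± 1.35 CPM (SD, n = 3), a log2 fold change of -1.06 (edgeR adjusted p = 3.9e-08). TNFRSF14, also known as HVEM, had one of -0.85 (edgeR adjusted p = 0.00045). TNFRSF17, TNFRSF11A and TNFRSF18, which encode BCMA, RANK and GITR, had 21, 24 and 24 counts over the Sup-B15 libraries and 0 in all 3 Sup-PR libraries, and did not pass the filter. The other untested receptors, TNFRSF13B, TNFRSF4 and TNFRSF9, had 9, 18 and 2 counts over Sup-B15 and 3, 1 and 1 over Sup-PR. No share of all genes with so few counts was computed, so nothing is read from these values.

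Of the adaptors and regulators around the complex, 13 were tested, 1 rose (7.53% of all genes tested) and 0 fell (15.4% of all genes) past both thresholds, 5 were higher and 2 lower by the adjusted p alone (28.0% and 27.4% of all genes), and the median log2 fold change was 0.10. RIPK1, a kinase that docks to TNF receptor 1 with TRAF2, rose from 30.6 ± 3.02 to 47.4 ± 1.11 CPM (SD, n = 3), with a log2 fold change of 0.63 (edgeR adjusted p = 9.2e-06). With scaling by total counts alone it was 0.57, just under the fold threshold. TRAF6, the adaptor of the canonical pathway below Toll-like receptors, was at 21.6 and 21.7 mean CPM.

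Of the 8 IKK and p100 processing genes, 0 rose and 0 fell past both thresholds (7.53% and 15.4% of all genes tested). Their median log2 fold change was 0.03. By the adjusted p alone 2 were higher (28.0% of all genes tested), SKP1 and RBX1, which belong to the ubiquitin ligase that precedes p100 processing. SKP1 had a log2 fold change of 0.35 (edgeR adjusted p = 0.00049) and RBX1 one of 0.36 (edgeR adjusted p = 0.00048). CUL1, the scaffold of the same ligase, was at 129 mean CPM in both lines. CHUK, the kinase directly below NIK, was at 58.0 ± 1.61 CPM in Sup-B15 and 56.9 ± 4.25 CPM in Sup-PR (SD, n = 3), and the lines overlapped.

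Of the 9 other Rel and IkB genes, 0 rose and 1 fell past both thresholds (7.53% and 15.4% of all genes tested), with a median log2 fold change of 0.13. The one that fell was NFKBIZ, a nuclear IkB protein, from 8.76 ± 1.33 to 4.56 ± 1.21 CPM (SD, n = 3), a log2 fold change of -0.95 (edgeR adjusted p = 0.00056). By the adjusted p alone 4 were higher and 2 lower (28.0% and 27.4% of all genes tested). Of 16 genes known as targets of NF-kB, with output from the non-canonical pathway, 7 were listed and 6 were tested. The list does not separate this pathway from the canonical one. Past both thresholds 0 were higher (7.53% of all genes tested) and 2 lower (15.4% of all genes), or 1 lower without ICAM1, and the median log2 fold change was -0.53. ICAM1, an adhesion molecule, was at 5.96, 5.22 and 5.89 CPM in Sup-B15 and 0.502, 0.348 and 0.179 CPM in Sup-PR. The lines were far apart, with a log2 fold change of -4.05 and a standard error of 0.28. CCR7, a homing receptor, was at 3.73 ± 0.365 and 0.979 ± 0.251 CPM (SD, n = 3), a log2 fold change of -1.93 (edgeR adjusted p = 1.4e-05). TNFAIP3, which encodes the NF-kB inhibitor A20, was at 253 and 170 mean CPM, and its log2 fold change of -0.58 (edgeR adjusted p = 3.4e-07) lay just short of 1.5-fold. By the adjusted p alone 2 of the 6 tested targets were higher and 4 lower, where 28.0% and 27.4% of all genes tested were. The 2 higher ones were CD83, with a log2 fold change of 0.52 (edgeR adjusted p = 0.00045), and MCL1, with 0.22 (edgeR adjusted p = 0.0014). The 4 lower ones include ICAM1, which passed the filter only through Sup-B15.

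**Figure D3:**
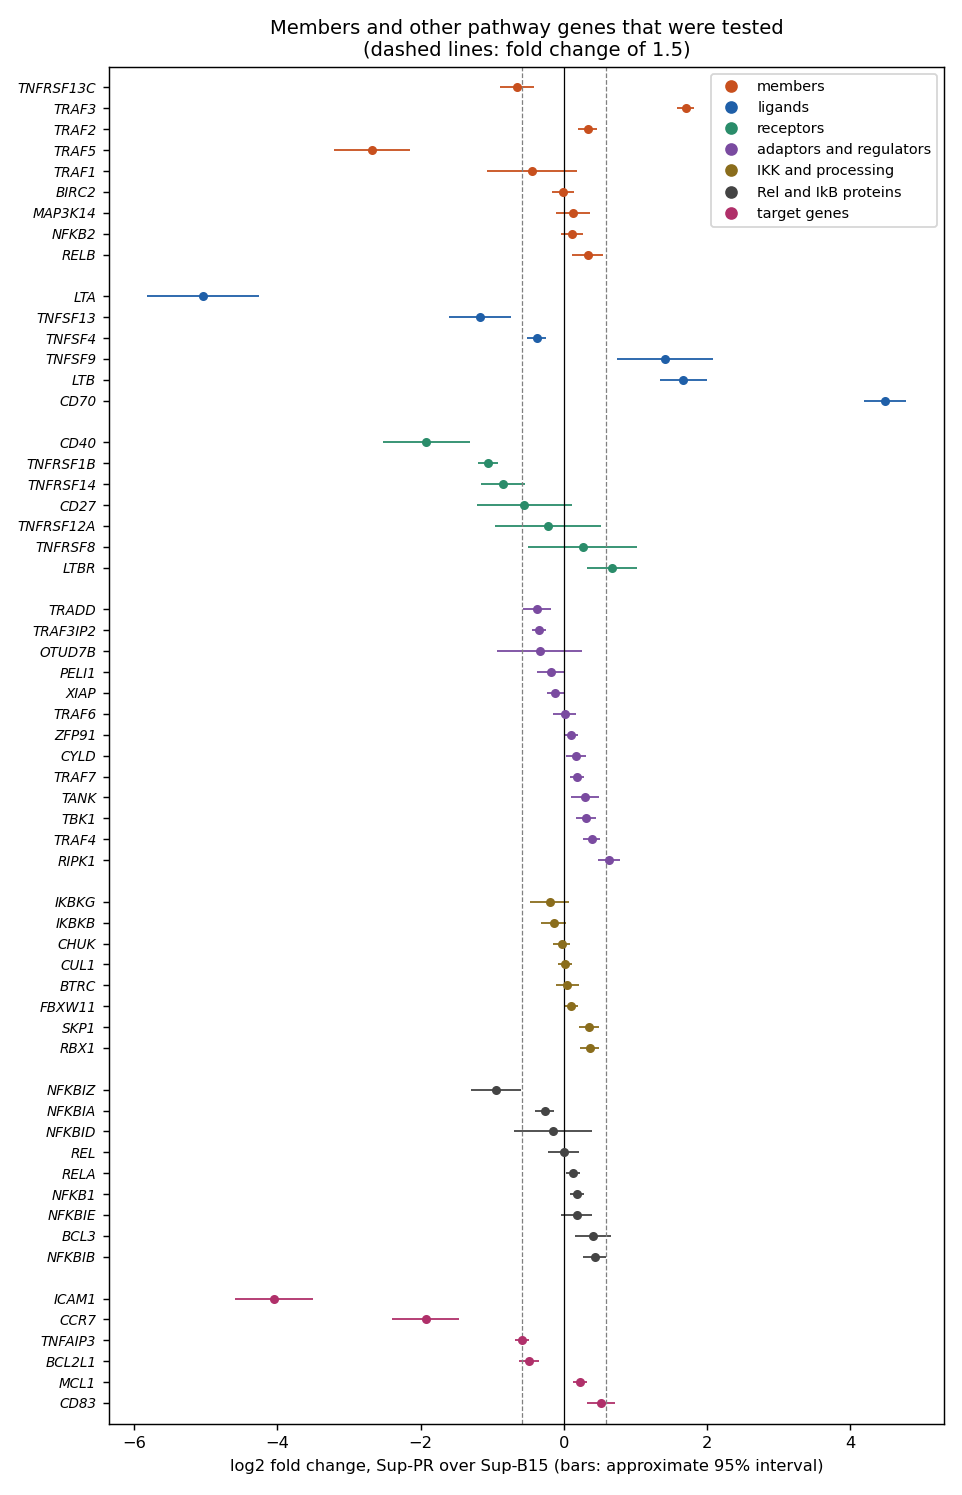
Log2 fold change of Sup-PR over Sup-B15 for the 9 tested members and the 49 other tested pathway genes, grouped by role and coloured by group, with bars for approximate 95% intervals and dashed lines at a 1.5-fold change. LTA at -5.04, ICAM1 at -4.05 and CD70 at 4.49 lie farthest from 0, and the IKK and processing genes lie between the dashed lines. LTA, ICAM1, CD40, TNFSF9 and TRAF5 passed the filter only through the line in which they were higher, so their bars are not a test.

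TRAF3 lies next to a stretch of chromosome 14 whose listed genes had counts in Sup-B15 and none in Sup-PR. CDC42BPB, a kinase gene 20.9 kb beyond the end of TRAF3 (chr14:102932379-103057462, minus strand), had 997, 1446 and 926 counts in Sup-B15 and 0 in each Sup-PR library, at least 1140-fold lower when 3 counts are taken as the floor for the whole line. All 4 genes listed between TRAF3 and TNFAIP2 were at 0 in all 3 Sup-PR libraries. The others were AMN, with 16, 11 and 4 counts in Sup-B15 (at least 10.5-fold lower), AL117209.1, with 2, 5 and 2 (at least 3.06-fold lower), and EXOC3L4, with 2, 0 and 0. The counts of EXOC3L4 were too few to tell the lines apart. AMN and AL117209.1 overlap the span of CDC42BPB, so reads in the shared bases cannot be told apart. Beyond them, TNFAIP2 was at 6.77 CPM in Sup-B15 and 7.21 CPM in Sup-PR, and on the near side RCOR1 was at 78.1 and 76.7 CPM, with log2 fold changes of 0.08 and -0.02. Of 14915 genes with at least 30 counts over Sup-B15, 84 (0.563%) had none in Sup-PR, and in the reverse direction 2 of 14129 (0.0142%).

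Besides TRAF3 and CDC42BPB, 25 tested genes had a start within 1 Mb of the TRAF3 start. Their log2 fold changes ran from -1.60 to 0.40 with a median of -0.02. Of these 25, 0 were called higher (7.53% of all genes tested) and 2 lower (15.4% of all genes). Of the 2 lower ones, AL049840.2 passed the filter only through Sup-B15. This window and the span to TNFAIP2 were chosen after values had been seen, so nothing is read from these counts. TRAF3 was the only tested gene of the window that was called higher. Around TRAF5 the nearest tested gene, RCOR3, 10.2 kb away, had a log2 fold change of 0.17. SLC30A1 on the other side, 197 kb away, had one of 0.50. Over all members, the 2 nearest tested genes on each side came to 36 genes, of which 2 were called higher and 6 lower, where 7.53% and 15.4% of all genes tested were. The higher ones were FMNL1, 15.8 kb from MAP3K14 (0.62 on the log2 scale), and NOLC1, 230 kb from NFKB2 (0.77). Apart from CDC42BPB, the lower ones were HHAT (-0.79), C5 (-0.96), ARHGAP42 (-0.94), ARHGAP27 (-1.17) and ZNF296 (-0.88). HHAT lies 650 kb from TRAF5, and ARHGAP42 lies 1320 kb from BIRC3 and 1350 kb from BIRC2. C5 lies 23.2 kb from TRAF1, ARHGAP27 76.8 kb from MAP3K14 and ZNF296 33.3 kb from RELB.

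**Figure D4:**
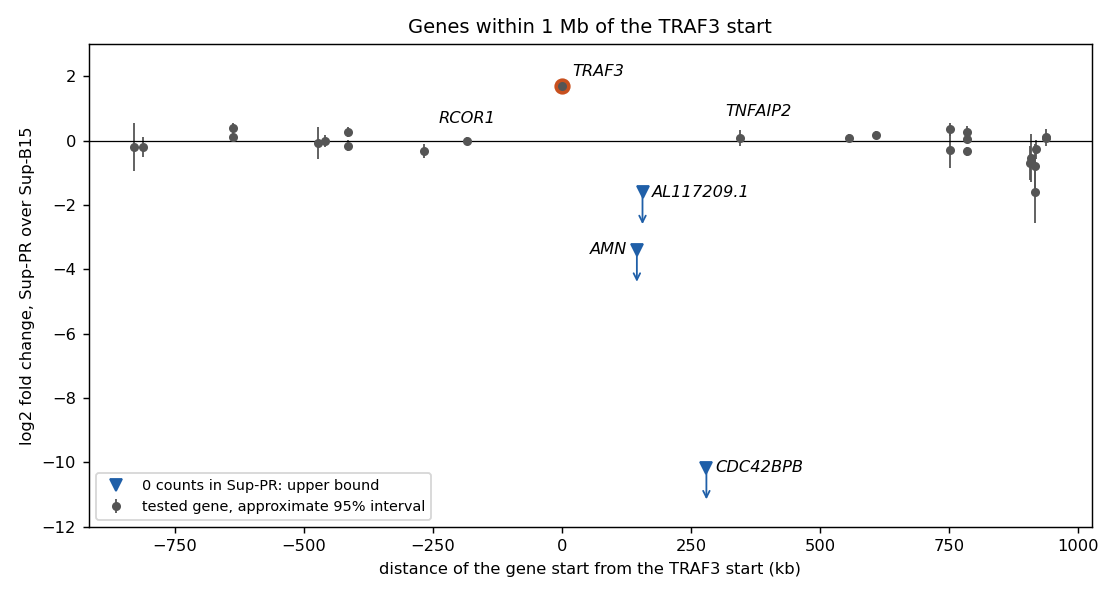
Log2 fold change of Sup-PR over Sup-B15 against the distance of each gene start from that of TRAF3 in kb, for the tested genes within 1 Mb, with bars for approximate 95% intervals. Triangles are upper bounds for genes with 0 counts in Sup-PR. TRAF3 (orange) is at 1.70, CDC42BPB is at or under -10.16, and RCOR1 and TNFAIP2 on either side are near 0.

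The 5 protein-coding genes whose profile over the 6 libraries was most like that of TRAF3 were SH3TC1, MXI1, PTPRK, RXRA and FOSL2. Likeness was the root mean square distance between log2 CPM values, each centred on its own mean, and it ran from 0.0449 for SH3TC1 to 0.0788 for FOSL2. With only 2 lines the profile is in the main a single step, so genes of the same fold lie close. SH3TC1 was at 62.7 and 202 mean CPM in Sup-B15 and Sup-PR. MXI1, a MYC antagonist, was at 3.57 and 13.0 CPM, and RXRA, the retinoid X receptor alpha gene, at 5.46 and 17.6 CPM. PTPRK, a receptor phosphatase, was at 12.6 and 42.7 CPM, and FOSL2, a member of AP-1, at 60.4 and 206 CPM.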

How the data were processed

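RNA-seq of 3 Sup-B15 and 3 Sup-PR libraries was analysed from the deposited table, whose column names match the labels (0 columns of per-sample values were unmapped). The members and the gene lists were chosen with earlier results of these data known. The submitters' processing notes name CASAVA, HISAT2, DESeq2 and GRCh38.p12, without versions of the tools, and while counting program, annotation and strandedness were not given in the sources used here. The authors deposited raw counts per gene, which were used for every test, and FPKM, which are counts divided by gene length and library, used for comparing genes. The authors' signal columns (counts divided by a size factor), their log2 fold change and their p-value with its adjusted form were deposited in the same table and not used, and the deposited gene length was used only for description. Gene coordinates in the table matched GENCODE 29 for all 10 members.

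Genes were filtered with filterByExpr, scaled by TMM and tested over the whole table with edgeR 4.0.16 (glmQLFit with robust estimation and glmQLFTest) in R 4.3.3, with p-values adjusted by the Benjamini-Hochberg method. Calls needed both an adjusted p under 0.05 and a change of more than 1.5-fold. The common coefficient of variation between libraries in edgeR was 0.0646, and this variation may be technical. The text names all members, the called genes of each list (in a list with none, the 2 with most counts), the genes overlapping members, and the 5 genes most like TRAF3. Of the nearest tested neighbours, which the rule also covers, those of TRAF3, the called ones and a few others are named and the rest counted. CHUK, RBX1, TRAF6, TNFAIP3, TNFSF13B, RELA, NFKB1, TNFRSF17, TNFRSF11A, TNFRSF18, TNFRSF13B, TNFRSF4, TNFRSF9, AMN, AL117209.1 and EXOC3L4 were named once their values were known. So were AL049840.2, CD83, MCL1, IGLL1, CD79B and VPREB1. Where a line had 0 counts, the fold is a bound that takes 3 counts in its libraries together as the floor, and BIRC3 is given by an exact 95% interval of the ratio of counts. Both cover counting error only. Likeness to TRAF3 used log2 CPM with a pseudocount of 0.5. A marker gene of the fixed list is not reported here. Promoter windows were taken from RefSeq (GRCh38.p14). Alternatives were other scalings, filters, DESeq2 1.42.0, limma-voom (limma 3.58.1), FPKM, the replicate number as a block and each library left out. Tables used pandas 2.3.3, numpy 2.4.6 and SciPy 1.17.1 in Python 3.11.15, and figures matplotlib 3.10.9.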

Additional observations from a re-analysis of the deposited data

How the results depend on the processing

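Under the alternatives run, no log2 fold change of a member or of a tested pathway gene changed sign past the threshold. Of 629 values for the 49 pathway genes, 623 kept their call, 2 lost it (LTBR and RIPK1, given above) and 4 gained it, all of TNFAIP3. With no filter beyond 1 count, 13 pathway genes were called lower in place of 8. Members called lower went from 2 to 1 with a filter of 10 counts in every library, which removes TRAF5, and were 1 to 2 over the libraries left out in turn, with TNFRSF13C lost without Sup-PR replicate 2. By the adjusted p alone, 4168 genes were higher and 4069 lower, with 17 and 14 pathway genes and 3 members higher. Leaving out each library in turn gave 1000 to 1206 genes called higher, 2065 to 2599 called lower, and 4 to 5 pathway genes higher and 8 to 10 lower. On FPKM with a pseudocount of 1, TRAF3 was at 1.42 and TRAF5 at -0.30 on the log2 scale, and TRAF5 was at -1.41 with a pseudocount of 0.1, since a pseudocount shrinks low genes. With total counts alone TRAF3 was at 1.63 and TRAF5 at -2.75. Members called lower were also 1 and pathway genes called lower 5 when only genes at the filter minimum in all libraries of both lines were counted, which leaves out TRAF5, LTA, CD40 and ICAM1 by construction and was chosen after seeing the data.

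Whether the replicate numbers pair the samples was left undecided. Deviations of same-numbered libraries correlated at 0.121, -0.06 and 0.181, and the last was the highest of all pairs. Sup-B15 replicate 2 correlated best with Sup-PR replicate 1 (0.146). All these correlations were weak, and deviations from the mean of 3 libraries depend on each other, so they cannot decide the question. With the replicate number as a block, 1134 genes were called higher and 2376 lower, with 5 and 8 pathway genes and 1 and 2 members.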
